A study of Mus musculus with 8 samples.

Results

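The circadian clock genes *Arntl*, *Npas2*, *Per1*, *Per2*, *Per3*, *Cry1*, *Cry2*, *Nr1d1*, *Nr1d2* and *Dbp* were followed in single nuclei of the mouse iris. They were chosen by name, and 9 of the 10 were found among the 22873 genes of the deposited tables. *Per3* was not analysed here. The data are 34357 nuclei in 8 libraries, each made from a pool of 5 or 6 irises of wild-type albino female mice aged 6 to 8 weeks. Irises were untreated (3 libraries), held constricted with 5% pilocarpine in mice kept in the light (3 libraries), or held dilated with 5% phenylephrine and 1% cyclopentolate in mice kept in the dark (2 libraries), with hourly drops over 6.5 h. Pilocarpine is a muscarinic agonist, phenylephrine an alpha-adrenergic agonist and cyclopentolate a muscarinic antagonist. The time of day at which each library was collected is not given in the sources used here, so drug, lighting and time of day cannot be told apart in the comparisons between conditions. The labels carry library numbers, and these fall into a first run of numbers (2 to 4, replicate 1 of each condition), a single library (13, constricted replicate 2) and a later run (15 to 18, the other 4 libraries). Which libraries shared a day of preparation is likewise not given there.

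The libraries held 1274 to 7321 nuclei and 5189437 to 25136427 unique molecular identifiers (UMIs, 1 per captured RNA molecule), with a median mitochondrial share of 0.0216% to 0.0728%. Values are given as UMIs per 1000000 UMIs of the same library and cell type (CPM). Most assigned cell types were the highest for their own markers, with 3 of 3 in stroma 2, sphincter 1, leukocytes and endothelial cells, 4 of 4 in stroma 1 and 2 of 3 in the dilator muscle. Iris PE was the highest for 1 of 3, and sphincter 2 (0 of 3) and the ciliary body epithelium (CBE, 0 of 2) for none. The CBE markers are also on the iris PE list, and *Chrm3* and *Adra1a* of sphincter 2 are also on the sphincter 1 and dilator muscle lists. *Syt1* is on the sphincter 2 list alone and was also highest in another cell type. These labels therefore had little support from the lists. The lists cannot decide them, because most of these markers are shared with another list and the paper found *Syt1* transcripts in both sphincter types. Why single markers were highest elsewhere was not tested. Some barcodes (195) occurred in more than 1 library, and untreated replicate 1 and dilated replicate 1 shared the most (63), which is 4.26% of the nuclei of the former. Without these nuclei the clock genes called between dilated and untreated irises were again *Per1* in the dilator muscle (log2 fold change 2.65) and *Cry1* in stroma 2 (2.08).

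The mammalian clock is a loop of transcription and repression that runs in almost every cell. ARNTL (also called BMAL1) pairs with CLOCK or with its close relative NPAS2 and binds E-boxes of *Per*, *Cry*, *Nr1d1*, *Nr1d2* and *Dbp*, and the PER and CRY proteins then block that pair. The nuclear receptors NR1D1 and NR1D2 (REV-ERB alpha and beta) repress *Arntl* and *Npas2* through ROR elements, and DBP activates genes through D-boxes. In mouse tissues the transcripts of *Arntl* and *Npas2* are therefore known to peak at about the opposite time of day from those of *Dbp* and *Nr1d1*. *Per1* is known, in addition, to be induced within hours by cyclic AMP, light or glucocorticoid signals.

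The genes are spread over several chromosomes (mm10, GENCODE annotation). *Arntl* lies at chr7:113207465-113314126 (plus strand), *Npas2* at chr1:39193731-39363236 (plus), *Per1* at chr11:69095217-69109960 (plus), *Per2* at chr1:91415982-91459324 (minus) and *Cry1* at chr10:85131700-85185064 (minus). *Cry2* lies at chr2:92403646-92434043 (minus), *Nr1d1* at chr11:98767932-98775333 (minus), *Nr1d2* at chr14:18204054-18239127 (minus) and *Dbp* at chr7:45705088-45710203 (plus). Short stretches of some of their promoters hold letters of the elements through which this loop is known to work. RefSeq promoter windows of 300 bases (GRCm38.p6, from 250 bases before a transcription start to 50 after) were matched by symbol for 9 of the 10 genes, 11 windows in all. *Per2* had none. Both strands were searched for the E-box CACGTG, the related E-box CACGTT, the D-boxes TTATGTAA, TTATGCAA and TTACGTAA, the ROR element ANTAGGTCA or ANTGGGTCA, and the TGACGT core of the cyclic AMP response element. The stretches below are 30 bases each, written 5′ to 3′ on the strand of the gene with the match in capitals. They are shown for *Arntl*, whose level separated the libraries, and for *Nr1d1*, a repressor of *Arntl*. *Per1* and *Cry1* were added as the clock genes called between dilated and untreated irises in the main fit.
Arntl, ROR element: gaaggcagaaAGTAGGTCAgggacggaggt
Nr1d1, E-box CACGTT: cgcacagatctcAACGTGccggctgctgga
Cry1, E-box CACGTG: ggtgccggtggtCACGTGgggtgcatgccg
Per1, E-box CACGTG: agcacccaagtcCACGTGcagggatgtgtg
Per1, D-box: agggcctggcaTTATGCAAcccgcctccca
Per1, cyclic AMP element core: gagctcagcggcTGACGTcggtttccctgg
The *Arntl* stretch lies at chr7:113207529-113207558 (plus strand), just after the second annotated start, that of *Nr1d1* at chr11:98775388-98775417 (minus) and that of *Cry1* at chr10:85185097-85185126 (minus). The first 2 *Per1* stretches lie before the transcription start of its first RefSeq window, at chr11:69098771-69098800 and chr11:69098914-69098943 (plus). The last lies before the start of its second window, at chr11:69100008-69100037. These *Per1* stretches fall inside the longer GENCODE span of the gene given above. For scale, 7.15% of 32851 promoter windows held CACGTG, 4.68% CACGTT, 1.78% a D-box, 1.45% the ROR element and 7.51% the TGACGT core. A match is a run of letters and was not tested as a binding site. The first *Arntl* window and those of *Npas2*, *Nr1d2* and *Dbp* held none of these letters, and that says nothing about binding elsewhere in these genes.

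The libraries differed widely in the balance between *Arntl* and *Npas2* on one side and *Dbp* and *Nr1d1* on the other, and they did so within each condition. To summarise this balance, the summed CPM of *Arntl* and *Npas2* was divided by that of *Dbp* and *Nr1d1*, and the log2 ratio was averaged over the dilator muscle, the iris pigment epithelium (PE) and stroma 2, the 3 cell types with the most nuclei. The untreated libraries had log2 ratios of 4.11, 1.74 and 1.61 (replicates 1, 2 and 3). The constricted libraries had 5.38, 1.52 and -0.85, and the dilated libraries 5.40 and 0.43. Replicate 1 of each condition therefore stood above all 5 other libraries, and constricted replicate 3 stood lowest with more *Dbp* and *Nr1d1* than *Arntl* and *Npas2*. The means were 2.49 ± 1.41 (SD, n = 3) in untreated, 2.02 ± 3.15 (n = 3) in constricted and 2.92 ± 3.51 (n = 2) in dilated irises. The differences from untreated, 0.43 for dilated and -0.47 for constricted, were small beside the pooled SD of 2.69 within a condition. They also depended on which libraries were set side by side. Among the libraries numbered 2 to 4, dilated minus untreated was 1.29 and constricted minus untreated 1.27, but among those numbered 15 to 18 the same differences were -1.24 and -2.53. The ratio is a description of the libraries and was given no test.

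**Figure D1:**
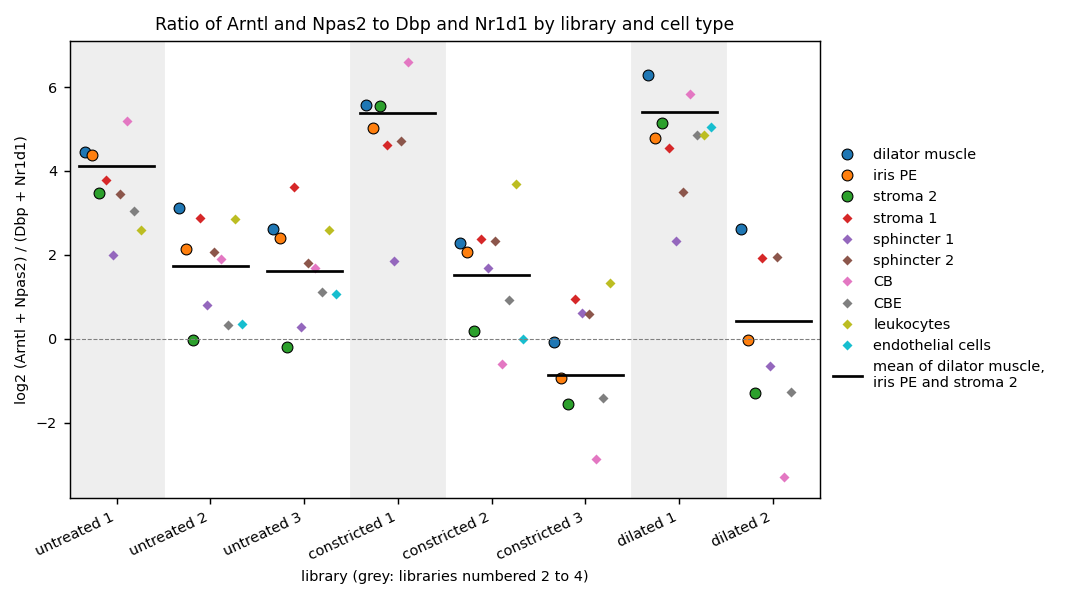
The log2 ratio of summed CPM of *Arntl* and *Npas2* to that of *Dbp* and *Nr1d1* (y axis) in each library (x axis), with 1 point per cell type and a black line for the mean of dilator muscle, iris PE and stroma 2. The 3 grey libraries (replicate 1 of each condition, black lines at 4.11 to 5.40) sit above the other 5 (-0.85 to 1.74); points are missing where 1 of the sums was 0.

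The same order of libraries recurred across the iris. The 3 libraries numbered 2 to 4 stood above all others in 9 of the 10 cell types, leukocytes being the exception, and constricted replicate 3 was lowest in 7. This counts only libraries with a value, and of the 3 libraries constricted replicate 1 gave none in CBE and only dilated replicate 1 gave one in endothelial cells. In leukocytes and endothelial cells the ratio rested on 0 to 5 and 0 to 11 UMIs of *Dbp* and *Nr1d1* per library, and it could be taken in only 6 and 4 libraries. The size of the range differed between cell types. From the highest to the lowest library the log2 ratio covered 6.34 in the dilator muscle, 5.97 in iris PE, 7.09 in stroma 2, 3.66 in stroma 1, 4.13 in sphincter 2 and 2.97 in sphincter 1. In CBE it covered 6.28 over 7 libraries, with 3 UMIs of *Arntl* and *Npas2* in the lowest. The highest library held only 3 UMIs of *Dbp* and *Nr1d1* in sphincter 2, 4 in stroma 1 and 9 in sphincter 1. What counting error adds to the differences in range was not tested. The widest range was that of ciliary body (CB) nuclei, 9.89, but its extremes rested on 2 UMIs of *Dbp* and *Nr1d1* in constricted replicate 1 and on 4 of *Arntl* and *Npas2* in dilated replicate 2.

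*Arntl*, whose protein pairs with CLOCK or NPAS2, carried this pattern in stroma 2. It stood at 167, 55.4 and 52.4 CPM in the untreated libraries, at 236, 35.5 and 15.7 in the constricted ones and at 243 and 21.0 in the dilated ones, a 15.4-fold range. In the dilator muscle the values were 90.4, 55.6 and 52.2 (untreated), 102, 32.4 and 9.0 (constricted) and 135 and 36.7 (dilated). In both cell types replicate 1 was the highest library of its condition, and the conditions overlapped. Iris PE behaved alike, from 21.7 CPM in constricted replicate 3 to 149 in dilated replicate 1. Stroma 1, the *Sox10* stromal type, had a narrower range, with 122, 102 and 123 CPM in untreated irises and 31.7 to 137 in the treated ones.

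*Npas2*, the alternative partner of ARNTL, had a wider fold range than *Arntl* in stroma 2 but a narrower one in the dilator muscle. In stroma 2 it was 213, 47.2 and 47.5 CPM in untreated, 237, 14.0 and 8.53 in constricted and 273 and 16.4 in dilated libraries, a 32.0-fold range that rested on 13 UMIs at its lowest point. In the dilator muscle the range was 6.28-fold, with 309, 191 and 180 CPM in untreated, 321, 121 and 54.0 in constricted and 339 and 99.8 in dilated libraries. The dilator muscle was the cell type with the highest *Npas2* level in 8 of the 8 libraries. In dilated replicate 1, for instance, it held 339 CPM where stroma 1 of the same library held 20.9.

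*Dbp*, an output factor driven directly by ARNTL, moved the opposite way. In stroma 2 its levels were 13.3, 57.5 and 49.2 CPM in untreated, 1.68, 20.5 and 49.9 in constricted and 3.77 and 49.1 in dilated libraries. The dilator muscle held 8.10, 15.8 and 22.8 CPM in untreated, 4.45, 15.95 and 46.9 in constricted and 2.86 and 14.0 in dilated libraries. Each condition thus had its lowest *Dbp* in replicate 1, down to 3 UMIs in stroma 2 of constricted replicate 1.

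The REV-ERB genes followed *Dbp*. *Nr1d1* stood in the dilator muscle at 9.97, 12.8 and 14.7 CPM in untreated, 4.45, 15.5 and 19.2 in constricted and 3.26 and 8.22 in dilated libraries. *Nr1d2* stood there at 43.6, 56.9 and 58.4, at 24.2, 75.8 and 92.1, and at 16.5 and 55.7 CPM in the same order. In stroma 2 the level of *Nr1d1* was 20.5, 47.5 and 64.2 CPM in untreated, 8.41, 22.6 and 21.0 in constricted and 10.8 and 42.6 in dilated libraries. Replicate 1 was again the lowest of each condition in both cell types. *Nr1d1* and *Thra* overlap over 1075 bases on opposite strands, *Dbp* and *Sphk2* over 737 bases, and *Arntl* and the antisense gene *Gm45355* over 2394 bases. The strand setting of the counting is not given in the sources used here, so reads in these overlaps are uncertain.

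The repressors *Per1*, *Per2*, *Cry1* and *Cry2* were less uniform. *Cry2*, a core repressor, varied less in iris PE (27.6 to 54.2 CPM over the 8 libraries) than in the dilator muscle or stroma 2, and there it was lower in replicate 1 than in the other replicates of each condition. *Per2*, which in many tissues peaks later than *Dbp*, averaged 11.1 CPM over the 8 libraries in the dilator muscle. Its averages were 17.9 in iris PE and 15.3 in stroma 2, against 46.0 in CBE. In stroma 2 it ran from 0.561 CPM (1 UMI) in constricted replicate 1 to 43.9 CPM (67 UMIs) in constricted replicate 3. *Per1* did not follow the ratio. In untreated irises it was higher in replicate 1 than in replicates 2 and 3 in the dilator muscle (26.2 against 10.6 and 11.7 CPM) and in iris PE (40.1 against 10.7 and 7.46), while in constricted irises replicate 3 was the highest (34.3 against 17.2 and 15.5 in the dilator muscle). *Cry1* in the dilator muscle had the narrowest range of all, from 22.03 to 36.2 CPM.

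**Figure D2:**
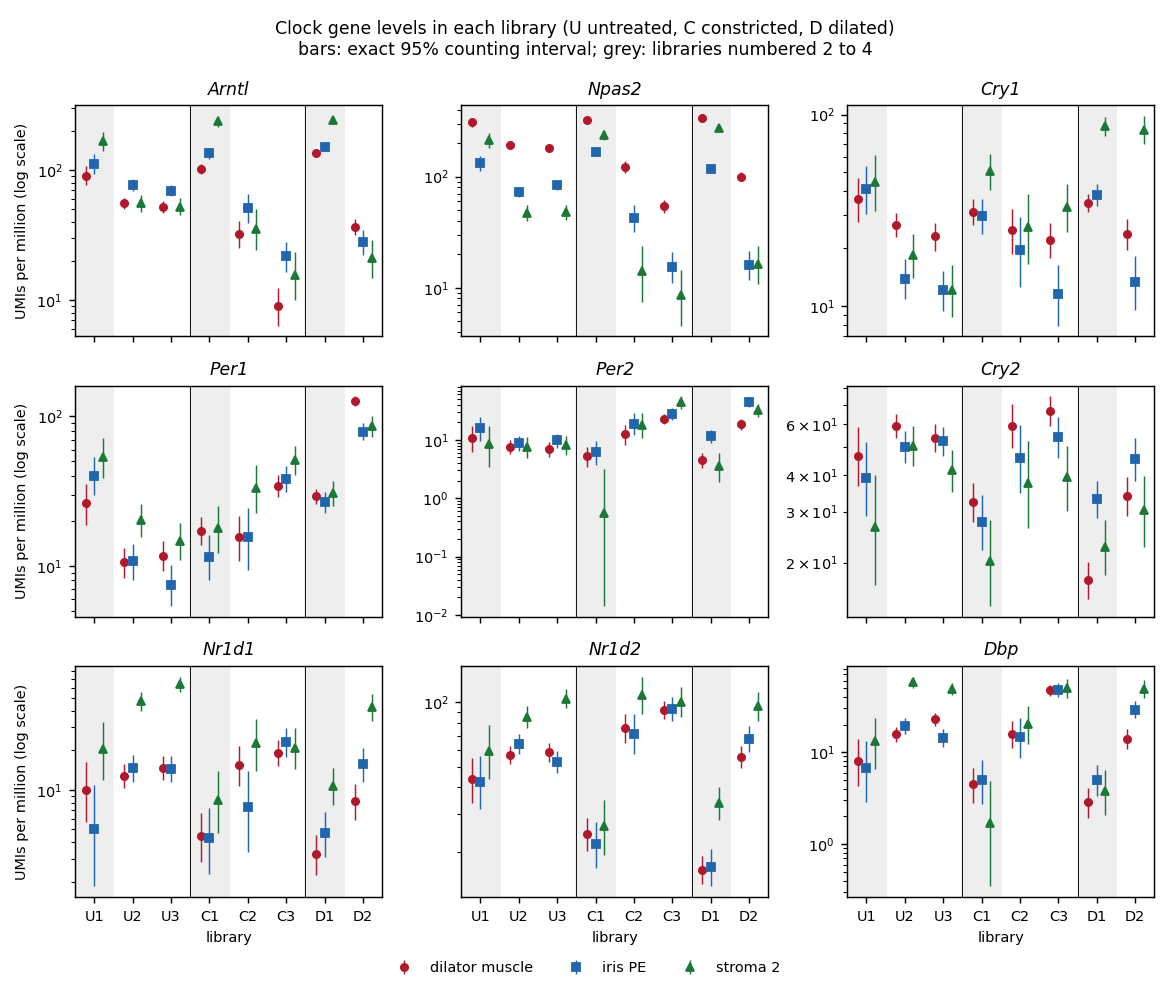
CPM on a log axis (y) of each clock gene in each library (x, U untreated, C constricted, D dilated) in dilator muscle, iris PE and stroma 2, with exact 95% counting intervals as bars. *Arntl* and *Npas2* are highest in the grey libraries (replicate 1 of each condition), where *Nr1d1*, *Nr1d2* and *Dbp* are at the lowest level of their condition; *Per1* peaks in dilated replicate 2 and *Cry1* in stroma 2 of both dilated libraries.

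Set beside other genes, the clock genes were among the most variable within a condition. For each gene with at least 10 CPM on average, the SD within conditions of log2(CPM + 1) was taken over the 8 libraries. Its median was 0.87 for the 9 clock genes and 0.21 for all 10119 such genes in the dilator muscle, 1.00 and 0.23 (10193 genes) in iris PE, and 0.92 and 0.27 (10294 genes) in stroma 2. *Npas2* in stroma 2 had an SD of 2.17, above 99.99% of genes, and *Arntl* in the dilator muscle 1.24, above 99.92%. *Cry1* in the dilator muscle (SD 0.30, above 76.4% of genes) and *Cry2* in iris PE (0.37, above 83.1%) stood nearest to the ordinary gene.

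The genes with a pattern most like that of *Arntl* were sought over the 24 values of 8 libraries in 3 cell types, which share libraries and depth, among 8974 genes of at least 10 CPM in each cell type. *Npas2* came first (Pearson r = 0.96 on centred log2 values), followed by *Ppard*, a nuclear receptor of fatty acid metabolism (0.95), *Myo10*, an unconventional myosin (0.89), *Gm35911* (0.89) and *Gm26904* (0.88). For *Dbp* the first were *Nr1d1* (0.91) and *Nr1d2* (0.90), then *Tpr*, a nuclear pore protein (0.90), *Psmc6*, a proteasome subunit (0.89), and *Bod1l* (0.89). *Arntl* had the lowest correlation with *Dbp* of all these genes (-0.89). The reverse did not hold. Genes outside the clock list had lower correlations with *Arntl* than *Dbp* did, such as *Ttc14* (-0.95) and *Cmss1* (-0.92), named after their values were seen. The library pattern was thus not particular to clock genes, and its source was not tested. *Per1* was close to neither *Arntl* (r = -0.34) nor *Dbp* (0.17).

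Cell types differed in the level of single clock genes. Levels in untreated irises (mean ± SD, n = 3) are given as a description, because the cell types were defined from the same counts. *Npas2* was highest in the dilator muscle, at 226 ± 71.3 CPM, then in sphincter 2 (157 ± 55.4), CB (107 ± 63.4), stroma 2 (103 ± 95.5) and iris PE (96.0 ± 31.6), where neighbours in this order overlapped. A gap without overlap then led to sphincter 1 (55.1 ± 11.0), and CBE (47.1 ± 30.1), endothelial cells (41.6 ± 15.1), leukocytes (36.8 ± 30.0) and stroma 1 (24.5 ± 3.65) followed. *Arntl*, its partner, was spread differently, with 175 ± 63.5 in CB, 124 ± 23.0 in leukocytes, 116 ± 11.6 in stroma 1, 91.5 ± 65.2 in stroma 2, 85.9 ± 22.2 in iris PE, 76.0 ± 23.5 in endothelial cells, 66.9 ± 31.2 in CBE, 66.1 ± 21.1 in the dilator muscle, 52.5 ± 26.0 in sphincter 2 and 35.2 ± 25.8 in sphincter 1. All neighbours in that order overlapped. Stroma 1 thus stood among the 3 highest cell types for *Arntl* and lowest for *Npas2*.

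The repressors had orders of their own. *Per2* was 32.3 ± 14.6 CPM in sphincter 1 and 25.7 ± 7.27 in CBE, and then, after a gap without overlap, 11.5 ± 3.86 in iris PE, 8.39 ± 1.94 in the dilator muscle and 8.06 ± 0.49 in stroma 2. The remaining 5 cell types lay between 2.53 and 7.26. CBE held the highest *Per2* of all cell types in 7 of the 8 libraries. *Cry2* was 71.5 ± 7.48 CPM in sphincter 2, 57.8 ± 7.69 in sphincter 1, 53.4 ± 6.34 in the dilator muscle, 51.7 ± 4.74 in CBE and 47.3 ± 7.06 in iris PE, and 8.38 to 39.6 in the other 5. *Cry1* ran from 36.9 ± 23.6 in sphincter 2 to 2.53 ± 4.38 in leukocytes (2 UMIs), with 28.6 ± 6.76 in the dilator muscle and 25.1 ± 17.3 in stroma 2. *Per1* ranged from 41.0 ± 50.5 in leukocytes (8 UMIs) and 33.2 ± 33.8 in CB to 8.87 ± 4.90 in stroma 1. For *Cry1*, *Cry2* and *Per1* no neighbours in the order were separated beyond their spread.

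Among the genes driven through E-boxes, *Nr1d1* was highest in stroma 2, the *Tfap2b* and *Pdgfra* stromal type, at 44.1 ± 22.05 CPM, against 27.0 ± 8.33 in CBE, 12.5 ± 2.38 in the dilator muscle, 11.4 ± 5.56 in iris PE and 5.93 ± 2.24 in stroma 1. It was the leading cell type for this gene in 4 of the 8 libraries. *Dbp* was 40.0 ± 23.5 in stroma 2, 30.4 ± 17.5 in sphincter 1, 15.5 ± 7.34 in the dilator muscle, 13.5 ± 6.36 in iris PE and 7.41 ± 2.00 in stroma 1. *Nr1d2* was the most even, from 97.5 ± 22.4 in sphincter 1 through 83.0 ± 22.6 in stroma 2 and 53.0 ± 8.11 in the dilator muscle to 32.1 ± 28.2 in leukocytes. All neighbours overlapped for these 3 genes. What free RNA adds to the low levels was not tested.

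Dilated irises were compared with untreated ones within each cell type, to ask which clock genes changed with dilation beyond the spread between libraries. Of the 90 gene and cell type pairs, 65 passed the filter on low counts (9 genes each in the dilator muscle, iris PE, stroma 2, CB and CBE, 7 in sphincter 1, 6 each in sphincter 2 and stroma 1, 1 in leukocytes and 0 in endothelial cells). A pair was called where the log2 fold change lay beyond 0.6 in either direction and the p of the edgeR quasi-likelihood test, adjusted over all genes of the cell type by the Benjamini-Hochberg method, was under 0.05. By this rule 2 of the 65 were called, both higher, *Per1* in the dilator muscle and *Cry1* in stroma 2. Over all 85092 pairs of a gene and a cell type 3.34% were called, a share close to that of the clock genes. The median log2 fold change of the 65 was 0.11 and that of all genes 0.00. In the 3 largest cell types the standard errors ran from 0.21 for *Cry1* in the dilator muscle to 1.10 for *Npas2* in stroma 2. The fold changes of *Arntl* in stroma 2 (log2 fold change 0.70, SE 0.93) and of *Dbp* in the dilator muscle (-0.90, SE 0.83) were within about 1 SE of 0. With the run of library numbers as a term in the fit, 6 pairs were called in place of 2. The share of all pairs called in that fit is not given here, so this count has no scale beside it. The added pairs were *Per2* in iris PE (log2 fold change 1.81), *Cry2* in the dilator muscle (-0.73), and *Per1* (1.82) and *Arntl* (-0.93) in stroma 1. Dilated *Per2* in iris PE was at 0.72 times the untreated CPM in the first run and at 4.77 times in the later run. The same ratios were 1.07 and 5.44 for *Per1* and 0.90 and 0.28 for *Arntl* in stroma 1. For *Cry2* in the dilator muscle they were 0.37 and 0.60. The runs thus differed in direction for *Per2*, and the stroma 1 differences lay mostly in the later run.

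*Per1* was higher in the dilated dilator muscle by 2.67 on the log2 scale (SE 0.56, edgeR adjusted p = 0.00735), where 13.3% of all 15395 genes tested were called. Its levels there were 26.2, 10.6 and 11.7 CPM in untreated and 29.3 and 126 in dilated libraries, with exact (Clopper-Pearson) 95% intervals of 26.1 to 32.9 and 117 to 136 for the dilated pair. The groups did not overlap, as for 48.4% of the genes tested in this cell type, but the gap to untreated replicate 1 was small and dilated replicate 2 stood alone. Without dilated replicate 2 the log2 fold change was 1.14 and the call was lost (adjusted p = 0.148), and without dilated replicate 1 it was 3.42. Among the libraries numbered 2 to 4 the dilated library was at 1.12 times the untreated one, and among those numbered 15 to 18 at 11.3 times. Dilated replicate 2 had the highest *Per1* of all libraries in 9 of the 10 cell types, with 79.1 CPM in iris PE and 85.9 in stroma 2. In these cell types the test gave log2 fold changes of 1.85 (SE 0.63, adjusted p = 0.319) and 1.22 (SE 0.54, adjusted p = 0.407), which were not called, in cell types where 0.595% and 1.73% of genes were.

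Lists of immediate early genes and of glucocorticoid-responsive genes, which answer to signals known to induce *Per1*, were measured beside it. In dilated against untreated irises 15 of 29 immediate early pairs and 4 of 34 glucocorticoid-responsive pairs were called higher. Over all pairs of a gene and a cell type 3.34% were called. With constriction edgeR called 0 of either list (7 and 0 pairs at an unadjusted p under 0.05), beside 0.0118% of all pairs. DESeq2 called 1 immediate early pair with constriction, *Junb* in iris PE, named after its value was seen. *Junb* was lower there, at 19.4, 27.9 and 27.3 CPM in constricted against 51.8, 125 and 74.8 in untreated libraries. With dilation DESeq2 called 16 immediate early pairs but only 1 glucocorticoid-responsive pair, *Fkbp5* in the dilator muscle. All 6 immediate early genes (*Fos*, *Egr1*, *Junb*, *Nr4a1*, *Sik1*, *Dusp1*) were called higher in the dilated dilator muscle, 3 in iris PE and 2 in stroma 2. In these cell types 13.3%, 0.595% and 1.73% of all genes tested were called in either direction. *Nr4a1*, an orphan nuclear receptor, stood at 50.4 and 400.4 CPM in the dilated dilator muscle against 9.49 to 14.3 in untreated. Of the 4 glucocorticoid-responsive genes, *Fkbp5* and *Zbtb16* were called higher in the dilated dilator muscle by edgeR and *Tsc22d3* and *Sgk1* were not. *Fkbp5*, a co-chaperone of steroid receptors, stood there at 34.9, 13.7 and 12.0 CPM in untreated and 50.7 and 136 in dilated libraries. In the constricted libraries it stood at 22.3, 18.6 and 55.7 CPM, so constricted replicate 3 lay above dilated replicate 1. Like *Per1*, every gene of both lists was higher in the dilator muscle of untreated replicate 1 than of replicates 2 and 3. *Egr1*, for instance, stood at 12.5 against 2.67 and 2.21 CPM. In the dilated dilator muscle the summed markers of this cell type were lower (1583 to 1623 CPM against 2406 to 2832) and those of stroma 1, pigment genes that it also expresses, higher (8862 to 9072 against 6895 to 7314). The sphincter 2 list was lower (300.4 to 403 against 513 to 572), as were those of Schwann cells (4.81 to 6.91 against 11.2 to 12.0) and photoreceptors (7.21 to 10.9 against 12.1 to 19.3), with no marker of these lists at 0 in every library. Their part in the *Per1* value was not tested.

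*Cry1* was higher in dilated stroma 2 by 2.04 on the log2 scale (SE 0.37, edgeR adjusted p = 0.0199), where 1.73% of the 12788 genes tested were called. It stood at 86.8 and 83.5 CPM in the dilated libraries (95% intervals 77.6 to 96.8 and 70.4 to 98.4), at 44.7, 18.5 and 12.2 in the untreated and at 50.5, 25.8 and 32.8 in the constricted ones. Both dilated libraries lay above all 6 others. They were far apart in the ratio of *Arntl* and *Npas2* to *Dbp* and *Nr1d1*, and whether that ratio bears on *Cry1* was not tested. Groups of dilated and untreated libraries did not overlap for 28.4% of the genes tested in stroma 2. The dilated library was at 1.94 times the untreated one among libraries 2 to 4 and at 5.45 times among libraries 15 to 18. The call was lost without untreated replicate 2 (log2 fold change 1.90, adjusted p = 0.126) or untreated replicate 3 (1.63, adjusted p = 0.121). In stroma 1, *Cry1* was 30.6 and 28.3 CPM in dilated against 19.7, 19.8 and 9.24 in untreated libraries, a separation seen for 31.7% of genes there. It was not called (log2 fold change 0.94, SE 0.38, adjusted p = 0.265), in a cell type where 1.17% of genes were. In the dilator muscle it was 34.5 and 23.6 CPM in dilated against 36.2, 26.6 and 23.1 in untreated libraries (log2 fold change 0.26, SE 0.21, adjusted p = 0.464). The dilated CPM there was 0.95 times the untreated one both among libraries 2 to 4 and among libraries 15 to 18. The fits scale the libraries by TMM and CPM values do not, so the direction can differ between them.

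The markers of endothelial cells also differed in stroma 2. Their sum was 132 to 151 CPM in untreated, 92.6 to 214 in constricted and 458 to 685 in dilated libraries. Most of it was *Cldn5*, a tight junction protein, at 373 and 631 CPM in the dilated libraries against 51.7 to 158 in the others, and *Erg*, an endothelial transcription factor, was also higher there, at 58.5 and 23.4 against 1.97 to 18.5. *Pecam1*, an adhesion molecule of endothelium, was at 26.7 and 30.4 against 14.4 to 45.9. The neuronal list was at 706 to 806 in dilated against 383 to 685 in untreated, and the leukocyte list at 2.92 to 7.01 against 7.19 to 19.3, with no marker of these lists at 0 in every library. In the dilator muscle the neuronal list stood at 1903 to 2575 CPM, so it is not particular to neurons here. Their part in the *Cry1* value was not tested.

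*Cry2* and *Nr1d1* had values of the other direction in the dilator muscle. *Cry2* stood at 46.8, 59.4 and 53.9 CPM in untreated, 32.3, 59.4 and 66.8 in constricted and 17.4 and 33.9 in dilated libraries. Dilated and untreated libraries did not overlap, as for 48.4% of genes there. Within library numbers the dilated value was 0.37 times (2 to 4) and 0.60 times (15 to 18) the untreated one. The test did not call it (log2 fold change -0.91, SE 0.35, edgeR adjusted p = 0.106), but it was called when the run of library numbers was added to the fit (-0.73, adjusted p = 0.00946). *Nr1d1* had a log2 fold change of -1.06 there (SE 0.56, edgeR adjusted p = 0.238).

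**Figure D3:**
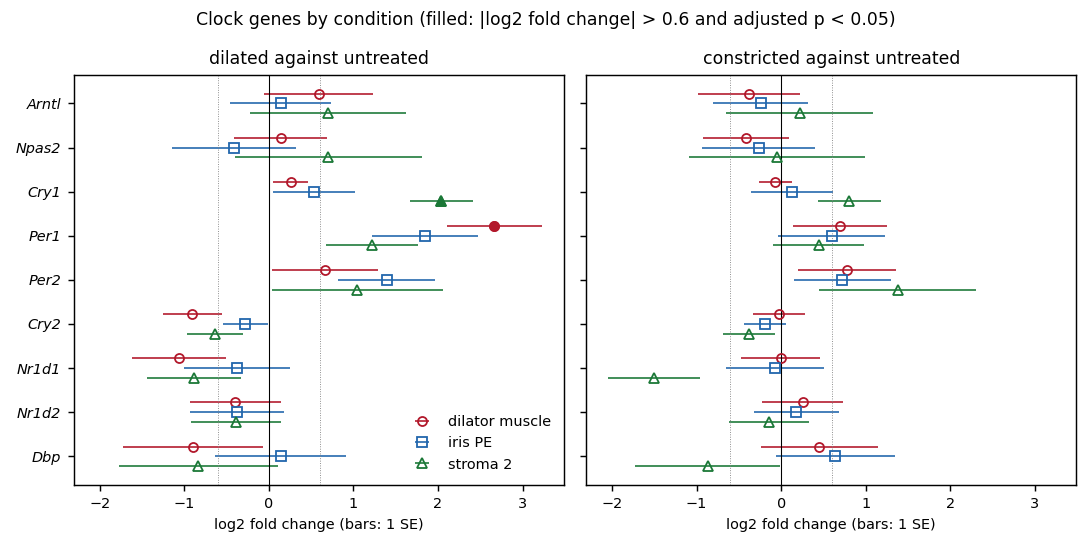
Log2 fold changes (x axis, bars 1 SE) of each clock gene (y axis) in dilator muscle, iris PE and stroma 2 for dilated (left) and constricted (right) against untreated irises. Filled points passed the call, *Per1* in dilator muscle (2.67) and *Cry1* in stroma 2 (2.04) for dilation; no point is filled for constriction.

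**Figure D4:**
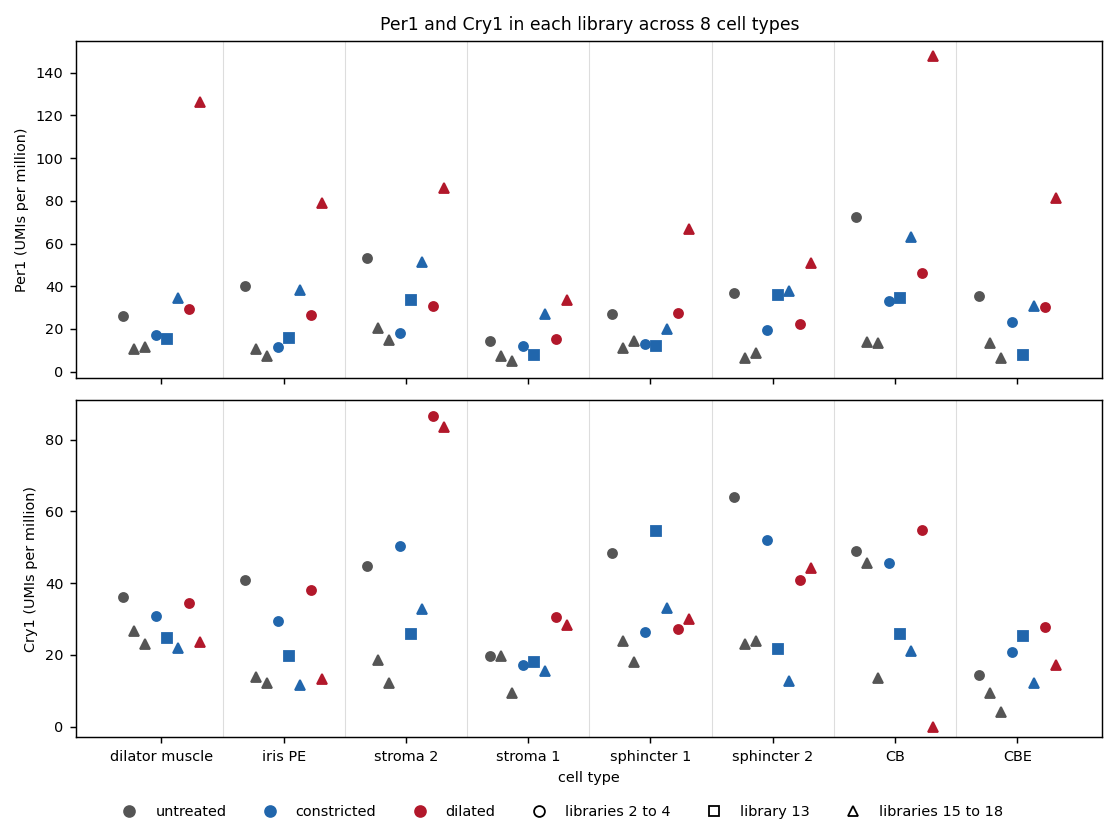
CPM (y axis) of *Per1* (top) and *Cry1* (bottom) in each library for 8 cell types (x axis), coloured by condition and shaped by library number. *Per1* is highest in the dilated library of numbers 15 to 18 in each of these cell types (126 CPM in dilator muscle), and *Cry1* in stroma 2 is highest in both dilated libraries (86.8 and 83.5 CPM).

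Constricted irises showed no called clock gene against untreated ones. 0 of 65 pairs passed the edgeR test, 5 had an unadjusted p under 0.05, and DESeq2 also called 0, with 2 at an unadjusted p under 0.05. Of all pairs tested, 0.0118% were called. The pair with the smallest adjusted p was *Nr1d1* in CBE (log2 fold change -2.36, SE 0.79, edgeR adjusted p = 0.463), and in stroma 2 *Nr1d1* was at -1.50 (SE 0.54, adjusted p = 0.782), with 8.41, 22.6 and 21.0 CPM in constricted against 20.5, 47.5 and 64.2 in untreated libraries. *Per1* in the dilator muscle had a log2 fold change of 0.70 (SE 0.55, adjusted p = 1.00). In dilated against constricted irises, 1 of 65 pairs was called beside 2.65% of all pairs, again *Per1* in the dilator muscle, where 10.5% of genes were called. It was higher in dilated irises by 1.97 on the log2 scale (SE 0.54, edgeR adjusted p = 0.0334). This call was lost without dilated replicate 2 (0.45, adjusted p = 0.692), without constricted replicate 1 (1.75, adjusted p = 0.102), without constricted replicate 2 (1.79, adjusted p = 0.126) and with DESeq2 (2.03, adjusted p = 0.0808). These comparisons share their libraries with those above.

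Whether the change with dilation differed between cell types was tested in joint edgeR fits of pairs of cell types. Every library had its own term, so that a shift of equal size in both cell types of a library drops out. A shared shift of unequal size does not. The range of *Npas2* over the libraries, for instance, was 6.28-fold in the dilator muscle, 10.9-fold in iris PE and 32.0-fold in stroma 2. The log2 fold change of *Cry1* was higher in stroma 2 than in the dilator muscle by 1.87 (SE 0.25, edgeR adjusted p = 0.000152), and higher than in iris PE by 1.47 (SE 0.33, adjusted p = 0.0140). That of *Per1* differed by -1.17 (SE 0.27, adjusted p = 0.0129) between stroma 2 and the dilator muscle, the dilator muscle having the larger one. These were 2 of 9 genes for stroma 2 against the dilator muscle, where 8.13% of 15749 genes differed, and 1 of 9 for stroma 2 against iris PE, where 3.29% of 15300 did. Iris PE differed from the dilator muscle for 5 of 9 clock genes, beside 12.2% of 16283 genes. *Cry2* (0.74, SE 0.17, adjusted p = 0.00479), *Dbp* (1.05, SE 0.29, adjusted p = 0.0161) and *Per2* (0.79, SE 0.25, adjusted p = 0.0425) had the higher fold change in iris PE, and *Npas2* (-0.67, SE 0.20, adjusted p = 0.0315) and *Arntl* (-0.51, SE 0.17, adjusted p = 0.0457) the lower. *Nr1d1* (0.63, adjusted p = 0.251) and *Nr1d2* (0.05, adjusted p = 0.900) were not called. Among these 8 differences only that of *Cry1* between stroma 2 and the dilator muscle kept its call in each of 12 alternative fits. Each of the other 7 lost it in at least 1 fit that left out a library.

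Other transcription factors of the clock were called mainly in the dilator muscle. Of 12 further clock transcription factors, 11 could be tested, in 67 pairs, and with dilation 3 pairs were called higher and 2 lower (median log2 fold change 0.05), beside 3.34% of all pairs. In the dilator muscle 4 of 11 were called, beside 13.3% of all genes there. *Nfil3*, a repressor that competes with DBP at D-boxes, was higher in the dilator muscle (log2 fold change 1.95, SE 0.34, edgeR adjusted p = 0.00229) and in sphincter 2 (2.74, SE 0.69, adjusted p = 0.0223), where 2.87% of genes were called. In the dilator muscle it stood at 21.8, 12.9 and 9.65 CPM in untreated, 20.1, 16.4 and 7.34 in constricted and 41.2 and 50.5 in dilated libraries. *Rora*, an activator at ROR elements, was lower there (-0.63, SE 0.18, adjusted p = 0.0386). It stood at 1901, 1741 and 1680 CPM in untreated, 1923, 1961 and 1396 in constricted and 1246 and 787 in dilated libraries. Constricted replicate 3 thus also lay below all untreated libraries. *Clock*, the usual partner of ARNTL, was not called in any cell type, and in the dilator muscle its 8 libraries lay between 93.8 and 122 CPM (log2 fold change 0.07, SE 0.14, adjusted p = 0.800). The other 2 called pairs, named after their values were seen, were both in the dilator muscle. They were *Bhlhe40*, an E-box repressor (1.09, SE 0.22, adjusted p = 0.00575), and *Tef*, a relative of *Dbp* (-1.66, SE 0.45, adjusted p = 0.0271).

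Genes that set the lifetime of clock proteins, and outputs of the clock, were followed in the same way. Among 8 genes of clock protein turnover, such as the casein kinases *Csnk1d* and *Csnk1e*, edgeR called 0 of 60 pairs with dilation, beside 3.34% of all pairs. At an unadjusted p under 0.05 there were 6. DESeq2 called 1, *Usp2* in stroma 2, named after its value was seen. For the outputs *Nampt* and *Wee1* edgeR called 0 of 12 pairs with dilation, beside the same share of all pairs. At an unadjusted p under 0.05 there were 2, and DESeq2 also called 0. With so few pairs, 0 calls is near that share. With constriction edgeR called 0 pairs of the transcription factors, of the turnover genes and of the outputs, beside 0.0118% of all pairs. At an unadjusted p under 0.05 there were 4, 2 and 5. DESeq2 called 1 pair of these lists with constriction, *Nampt* in stroma 2, the rate-limiting enzyme of NAD salvage (edgeR log2 fold change 1.02, adjusted p = 0.0546). In dilated against constricted irises edgeR called 1 of the 12 output pairs, beside 2.65% of all pairs. It was again *Nampt* in stroma 2, at a log2 fold change of -1.05 (edgeR adjusted p = 0.0234).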

How the data were processed

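Single-nucleus libraries were sequenced by the authors, who made the deposited UMI counts per gene and nucleus with Cell Ranger 3.1.0 against the mm10 pre-mRNA genome, per the submitters' processing notes. The deposited nuclei had already been filtered by the authors (at most 1% mitochondrial UMIs, given as a percent per nucleus, and at least 500 genes) and carried the cell type assigned by them in Seurat, which was used as deposited. For each cell type the nuclei of a library were summed, so the replicate was the library, a pool of several irises.

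Sums of each cell type over all 3 conditions were tested with edgeR 4.0.16 (TMM, filterByExpr, quasi-likelihood test, R 4.3.3), with Benjamini-Hochberg adjustment over all genes tested, and a call needed an absolute log2 fold change over 0.6. Library totals ran from 5189437 to 25136427 UMIs. Intervals cover counting error only. CPM values, and the ratios and overlaps of libraries taken from them, carry no TMM scaling and can differ from the fold changes. Scrublet marked 359 nuclei (1.04%) as doublets, which were kept in the main counts. Alternatives were DESeq2 1.42.0, RLE factors, no filter, no fold minimum, each library left out, the replicate number or the run of library numbers as a block, no doublets and, chosen after seeing the data, no nuclei of barcodes found in more than 1 library. The tests were checked on simulated counts.

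The genes and lists were chosen with earlier results of these data known. Named were the 9 clock genes found, *Clock*, *Rora*, further clock genes called in at least 2 cell types with dilation, the companion lists, and the 5 genes most correlated with *Arntl* and with *Dbp*. Lists of other cell types summed, over all nuclei of a library, to 1152 to 1829 CPM (neurons, 3 genes), 7.73 to 18.7 (photoreceptors, 4 of 5 genes), 10.1 to 20.8 (Schwann cells), 2.31 to 15.2 (lens) and 0 to 0.517 (corneal epithelium, 1 of 2 genes). The neuron list was higher within the dilator muscle, at 1903 to 2575 CPM, so its sum cannot be read as a measure of neurons. Libraries were prepared and sequenced in more than 1 batch, and which library fell in which is not given in the sources used here.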

Additional observations from a re-analysis of the deposited data

Results flagged for a closer look

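For 8 clock gene differences the change with dilation (dilated against untreated irises) differed between cell types in joint edgeR fits, with adjusted p over all genes of the fit. Between stroma 2 and the dilator muscle these were *Cry1* (1.87 on the log2 scale, higher in stroma 2, adjusted p = 0.000152) and *Per1* (-1.17, higher in the dilator muscle, adjusted p = 0.0129). Without dilated replicate 2 that of *Per1* was -0.76 (adjusted p = 0.108) and without untreated replicate 2 it was -1.03 (adjusted p = 0.119). Between stroma 2 and iris PE it was *Cry1* (1.47, adjusted p = 0.0140), which lost the call without untreated replicate 1 (1.43, adjusted p = 0.0525) or 3 (1.41, adjusted p = 0.113). Between iris PE and the dilator muscle these were *Cry2* (0.74), *Dbp* (1.05), *Per2* (0.79), *Npas2* (-0.67) and *Arntl* (-0.51), with adjusted p of 0.00479, 0.0161, 0.0425, 0.0315 and 0.0457. *Cry2* lost the call without dilated replicate 1 (0.42), *Dbp* without dilated replicate 2 (0.93) or untreated replicate 3 (0.64), and *Npas2* without dilated replicate 2 (-0.37) or untreated replicate 1 (-0.65) or 3 (-0.61). *Per2* and *Arntl* lost it without dilated replicate 2 (0.90 and -0.34), untreated replicate 2 (0.65 and -0.49) or untreated replicate 3 (0.86 and -0.51). *Per2* also lost it without dilated replicate 1 (0.71) or constricted replicate 3 (0.79), and *Arntl* without constricted replicate 2 (-0.51). Without nuclei called doublets *Per2* (0.76) and *Arntl* (-0.50) lost it as well, and so did *Per2* with no filter on low counts (0.77).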

How the results depend on the processing

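No called value changed direction under any alternative. The number of clock gene and cell type pairs called with dilation was 2 of 65 in the main fit, 12 with no filter on low counts, 6 with the run of library numbers as a block and 1 to 3 when 1 library was left out. For constriction it was 0, and 2 with no filter, 1 with the run of library numbers as a block (*Dbp* in CB, log2 fold change 2.63) and 0 to 0 with 1 library left out. For dilated against constricted it was 1, and 3 with no filter, 2 with the replicate block, 3 with the run of library numbers as a block, 0 with DESeq2 (4 at an unadjusted p under 0.05) and 0 to 3 with 1 library left out. Calls of differences between cell types numbered 8, and 3 to 10 with 1 library left out. The difference of the log2 ratio of *Arntl* and *Npas2* to *Dbp* and *Nr1d1* ran from -2.05 to 2.91 (dilated minus untreated) and from -2.15 to 0.97 (constricted minus untreated) with 1 library left out, so its sign turned with single libraries. With the replicate number as a block 3, 0 and 2 pairs were called for the 3 comparisons. The shares of all pairs called under these alternatives are not given here, so the counts of clock genes have no scale beside them. Libraries of the same number did not all deviate together (correlations in the dilator muscle from -0.0331 to 0.426), so the numbers were not taken as pairs. Libraries of the same run of library numbers but of different conditions did deviate together (0.182 to 0.426 in each such pair), and the main fits hold no term for the run. These deviations are from the mean of a condition, so the 2 dilated libraries mirror each other. Untreated replicate 1 correlated at 0.2298 with dilated replicate 1 and at -0.2298 with dilated replicate 2. The pairs are therefore not independent of each other. Where a dilated library was left out, the lone one was assumed to vary like the other groups. The low counts limit the smaller cell types: no clock gene could be tested in endothelial cells and 1 in leukocytes. The causes were not tested.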
